A study of Mus musculus with 6 samples.

Results

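Notch receptors and their ligands were followed in calvarial RNA of mice that overexpress the microRNA miR-34c. The members were 9 genes, the receptor genes Notch1, Notch2, Notch3 and Notch4, the ligand genes Jag1, Jag2, Dll1 and Dll4, and the noncanonical ligand gene Dlk1, and every array probe carrying one of these symbols was kept, detected or not. This gave 13 of the 45281 probes on the array, or 9 of 19057 named genes. Total RNA of primary calvaria, the bones of the skull vault, was hybridised to Illumina bead arrays. All mice were FVB/N at postnatal day 3, with 3 wild-type samples (WT) and 3 samples labelled as miR34c overexpression (TG). The labels do not name the promoter or the cells that carry the overexpression, the sex, or whether a sample is 1 pup or a pool. The series title places the gain of function in the osteoblast. The labels call the samples biological replicates, and p-values measure the spread between these samples only.

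Notch receptors are membrane proteins that are cut when a ligand on a neighbouring cell binds them, and the freed intracellular part enters the nucleus and, with Rbpj and Mastermind proteins, switches on genes of the Hes and Hey families. In bone, Notch signalling is known to hold back osteoblast maturation and to influence osteoclast formation, and miR-34c has been reported to repress Notch pathway transcripts in osteoblasts, which is why these genes were chosen. MicroRNAs find their targets mainly through the seed, bases 2 to 8 of the mature strand. The sequences below show the seed shared within the miR-34 family, with the seed in capitals, 5′ to 3′, from RefSeq on build GRCm38.p6. They lie at chr4:150068473-150068494 (plus strand, miR-34a-5p), chr9:51103610-51103632 (minus strand, miR-34b-5p), chr13:113037549-113037570 (plus strand, miR-449a-5p) and chr13:113036008-113036028 (plus strand, miR-449c-5p). Of 1738 mature RefSeq entries, 4 had the seed of miR-34a-5p, and these included a miR-449 pair. The entries used here did not include miR-34c-5p, so it could not be among the 4.
mmu-miR-34a-5p: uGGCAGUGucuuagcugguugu
mmu-miR-34b-5p: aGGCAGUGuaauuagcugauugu
mmu-miR-449a-5p: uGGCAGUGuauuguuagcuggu
mmu-miR-449c-5p: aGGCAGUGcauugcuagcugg
The 3p arm of miR-34c, on the minus strand at chr9:51103044-51103065, and that of its neighbour miR-34b, on the minus strand at chr9:51103574-51103595, share another seed, shown because the label does not say which arm acted.
mmu-miR-34b-3p: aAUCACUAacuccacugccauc
mmu-miR-34c-3p: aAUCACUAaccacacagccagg
The 5p arm, miR-34c-5p, is named only, because its sequence was not among the entries used here, so its seed was not compared. No named probe of the array stood for a miR-34 gene, so the level of miR-34c was not measured in either group.

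Median intensity per array was 125.1 to 132.6 against a median of 116.4 to 122.2 for the negative control beads, and the number of detected probes (detection p under 0.05) was 19680 to 21412. In the control block of the deposited table the headers give an age label and replicate numbers that differ from those of the sample labels, and this discrepancy is unresolved. TG replicates 2 and 3 had Xist at 9.17 and 9.34 and the Y-linked Kdm5d at 4.69 and 4.43 (normalised log2 intensity), while the other 4 arrays had Xist at 4.49 to 5.12 and Kdm5d at 6.99 to 7.36. By these genes, TG replicates 2 and 3 had a female pattern and the remaining 4 arrays a male one. Of the 8 osteoblast markers listed, 8 were measured, among them Bglap, Alpl and Sp7, and each was detected on every array. Their median log2 fold change was -0.14, with 3 positive and 5 negative values. Bglap had -0.78 ± 0.17 (SE), with limma unadjusted p = 0.0018 and adjusted p = 0.9996. Its groups did not overlap, and its other probe had -0.96. Ibsp had 0.17 ± 0.14, Col1a1 0.03 ± 0.12 and Alpl -0.03 ± 0.17. The part of these markers in the values below was not tested.

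No Notch receptor or ligand probe bright enough to be tested passed the test for a difference between TG and WT. A probe was tested when its detection p was under 0.05 on at least 3 of 6 arrays, which 9 of the 13 probes met, standing for 7 genes. Notch2 and Dll4 were below that limit. With limma, 0 of these 9 probes passed an adjusted p of 0.05 over the 20632 probes tested, where 0% of all probes passed. At an unadjusted p under 0.05 there were again 0 of 9, against 3.44% of all probes. In normalised values the groups overlapped for all 9, while 3.62% of all probes lay higher and 3.93% lower in TG without overlap. Log2 fold changes (TG minus WT) were negative for 8 of the 9 probes and positive for 1. Notch4 and Dlk1 each count as 2 probes here, and every 95% interval included 0. By 1 probe per gene, 6 of the 7 measured genes were negative, beside 5656 of all 11204 genes tested. The median of the 7 was -0.06, beside -0.001 over all genes tested. The filter keeps out dim probes, so these 7 are not all members. In bulk RNA, fewer cells of a type and less RNA per cell cannot be told apart.

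**Figure D1:**
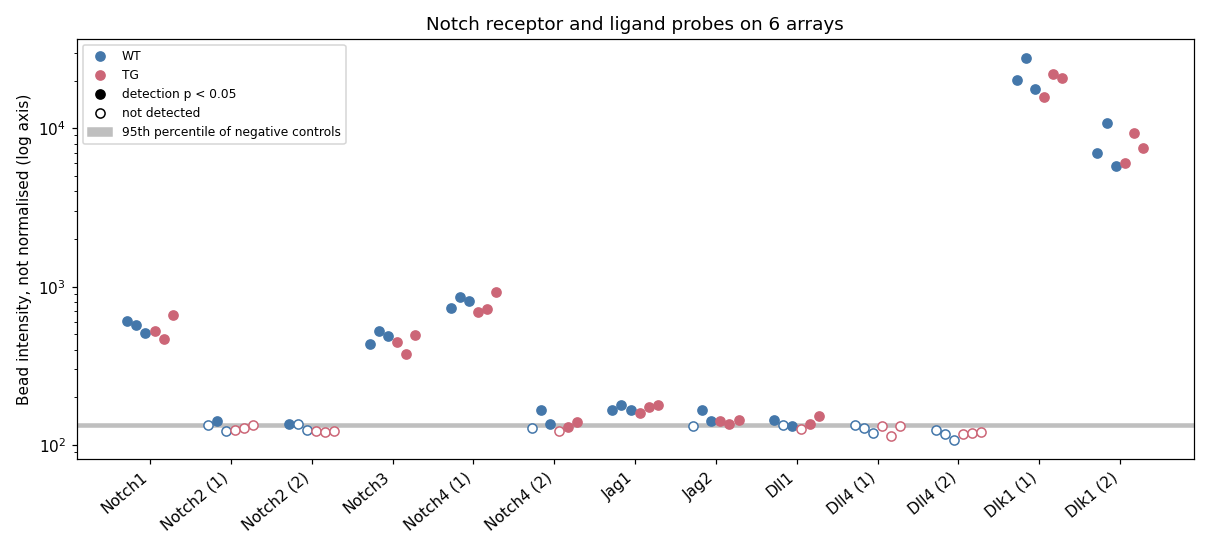
Bead intensity before normalisation (log axis) of the 13 probes on the 3 WT (blue) and 3 TG (red) arrays, replicates 1 to 3 from left to right within each colour, with filled points where the detection p was under 0.05; (1) and (2) are the brighter and the dimmer probe of a gene, and levels are not comparable between probes. The grey band is the range over arrays of the 95th percentile of the negative controls. The Dll4 points all lie in or below this band and the Notch2 points close to it. The colours overlap for every probe except Notch2 (2).

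Of the receptors, Notch1, the receptor best known from T cell development, was detected on all 6 arrays. Its intensities were 607.2, 573.1 and 506.9 in WT and 525.2, 468.0 and 662.2 in TG. The highest and the lowest array were both TG, so the TG range enclosed the WT range. Normalised log2 intensity was 8.84 ± 0.14 in WT and 8.78 ± 0.22 in TG (SD, n = 3), and the log2 fold change was -0.06 ± 0.15 (SE; limma, unadjusted p = 0.690, adjusted p = 0.9996). The 95% interval of -0.40 to 0.28 corresponds to 0.755-fold to 1.22-fold.

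Notch3, a receptor of vascular smooth muscle cells and pericytes, had intensities of 433.9, 521.2 and 487.9 in WT and 446.5, 376.7 and 495.2 in TG. TG replicate 2 was the lowest and WT replicate 2 the highest array before normalisation, with the other arrays interleaved. The normalised values were 8.55 ± 0.20 in WT and 8.37 ± 0.16 in TG (SD, n = 3), with a TG minus WT difference of -0.18 ± 0.15 (SE; 95% interval -0.53 to 0.16, limma, unadjusted p = 0.260). Notch3 kept its negative sign in all 17 alternative settings, between -0.28 and -0.07. The 7 measured markers of smooth muscle cells and pericytes, which include Acta2, Rgs5 and Pdgfrb, had a median log2 fold change of -0.004. Of these values, 3 were positive and 4 negative. Cspg4 had 0.38 ± 0.15 (SE), with limma unadjusted p = 0.0311 and adjusted p = 0.9996. Its groups overlapped in normalised values, while before normalisation all TG arrays lay above all WT arrays. The part of these markers in the Notch3 value was not tested.

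Notch4, a receptor found mainly in endothelium, was read by a bright and a dim probe. The bright probe ILMN_1220697 had intensities of 737.8, 859.3 and 806.9 in WT and 691.6, 727.8 and 931.1 in TG. Before normalisation the highest and the lowest array were both TG. Its log2 fold change was -0.05 ± 0.15 (SE; 95% interval -0.41 to 0.30, limma, unadjusted p = 0.731). The dim probe ILMN_1256134 had intensities of 128.9, 167.5 and 136.2 in WT and 122.8, 130.6 and 139.0 in TG and was detected on 2 arrays of each group. WT replicate 2 stood above the rest on this probe, and the remaining arrays overlapped. It gave the most negative value of the 9 tested probes, -0.40 ± 0.25 (SE; 95% interval -0.99 to 0.18, limma, unadjusted p = 0.149), which ranged from -0.66 without WT replicate 1 to -0.14 without WT replicate 2. It was -0.84 with a Y-linked covariate (described below) and -0.08 in the values the authors normalised. The SD of this probe over the 6 arrays exceeded that of 95.1% of the tested probes. Endothelial markers had a median log2 fold change of -0.008 over 9 genes, with Cdh5 at -0.01 ± 0.12 (SE) and Pecam1 at 0.05 ± 0.18. Sox17, a transcription factor of arterial endothelium, had -0.54 ± 0.14 (SE), with limma unadjusted p = 0.0048 and adjusted p = 0.9996. Its groups did not overlap in normalised values but did before normalisation, and its other probe had -0.07. Tek had -0.21 ± 0.13, Tie1 0.19 ± 0.17 and Esam 0.04 ± 0.13. Of the 9 values, 3 were positive and 6 negative. The endothelial list had a mean level of -0.07, 0.06 and 0.12 in WT and -0.14, -0.06 and 0.10 in TG, relative to all arrays. The bright Notch4 probe, like this list, had its lowest normalised value on TG replicate 1. Both had their highest 2 values on WT replicate 3 and TG replicate 3. TG replicate 1 was the lowest array for 6 of the 9 tested probes. The part of these markers in the Notch4 values was not tested.

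Notch2, the receptor known for skeletal gain-of-function disease in humans, was at the limit of detection. Probe ILMN_2678002 had intensities of 136.2, 135.4 and 124.6 in WT and 121.9, 120.5 and 123.0 in TG, with detection p-values of 0.0449, 0.0545 and 0.129 in WT and 0.394, 0.357 and 0.378 in TG. All WT arrays lay above all TG arrays, but the TG values were 1.02 times the negative control median and the WT values 1.07 to 1.12 times it. The groups separated in this direction for 4.56% of all 45281 probes. Since the lowest detected signal of the TG arrays was at least as high as the WT mean, no fold is given. The other Notch2 probe, ILMN_2980247, had intensities of 134.8, 142.3 and 122.7 in WT and 124.4, 129.0 and 133.3 in TG, with overlap. It was detected on WT replicate 2 only, so no fold is given for it either. Neither probe met the filter. Fitted without it, probe ILMN_2678002 had a difference of -0.29 ± 0.08 (SE; limma, unadjusted p = 0.0083, adjusted p = 0.9997) and ILMN_2980247 one of -0.13 ± 0.12 (SE; limma, unadjusted p = 0.315), between log2 values that lie at the detection limit.

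**Figure D2:**
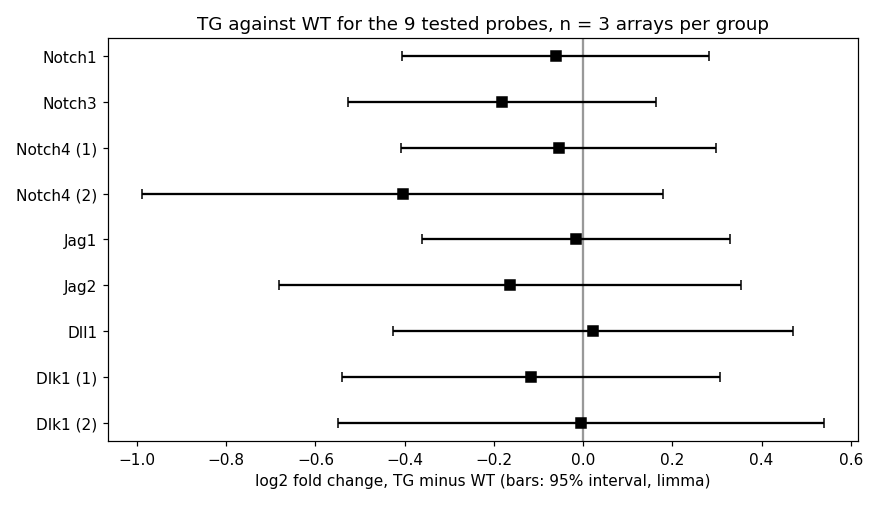
Log2 fold change (TG minus WT, x axis) with its 95% interval for each of the 9 tested probes, n = 3 arrays per group; (1) and (2) are the brighter and the dimmer probe of a gene. Every interval includes 0, and the widest is that of the dim Notch4 probe.

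Of the canonical ligands, Jag1, the Notch ligand best known from the skeleton, was dim but detected on all 6 arrays. Its intensities were 166.5, 178.9 and 167.1 in WT and 158.5, 174.7 and 178.1 in TG, and the groups overlapped. The log2 fold change was -0.02 ± 0.15 (SE; 95% interval -0.36 to 0.33, limma, unadjusted p = 0.917), or 0.778-fold to 1.26-fold. Jag1 signals were 1.32 to 1.48 times the median of the negative controls.

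Jag2, a second Serrate-type ligand, had intensities of 132.2, 167.3 and 142.4 in WT and 142.3, 136.8 and 144.2 in TG. WT held both the highest and the lowest array and the TG arrays lay close together, with an SD of 0.07 in TG against 0.48 in WT on the normalised log2 scale. The log2 fold change was -0.16 ± 0.22 (SE; 95% interval -0.68 to 0.35, limma, unadjusted p = 0.488) and went from -0.43 without WT replicate 1 (unadjusted p = 0.0216, limma) to 0.04 without WT replicate 2. WT replicate 1 was the only array on which Jag2 was not detected.

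Dll1, a Delta-type ligand, was the only tested member with a positive value. Its intensities were 143.7, 134.5 and 132.6 in WT and 126.8, 135.9 and 152.2 in TG, detected on 2 arrays of each group. TG replicate 3 was the highest and TG replicate 1 the lowest array. The log2 fold change was 0.02 ± 0.19 (SE; 95% interval -0.43 to 0.47, limma, unadjusted p = 0.915), and it ranged from -0.14 to 0.21 on leaving out 1 array.

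Dll4, the Delta-type ligand of sprouting vessels, was not detected on any array. Its probes had intensities of 119.5 to 133.0 in WT and 114.5 to 131.6 in TG (ILMN_1250828), and of 108.0 to 125.0 in WT and 117.9 to 120.9 in TG (ILMN_1249195). These are 0.928 to 1.10 times the negative control median, so Dll4 was not well above background in either group and no fold is given. Other endothelial transcripts were present, with Cdh5, Emcn and Esam detected on all 6 arrays. Kdr, a listed endothelial marker with 2 probes, did not meet the filter.

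**Figure D3:**
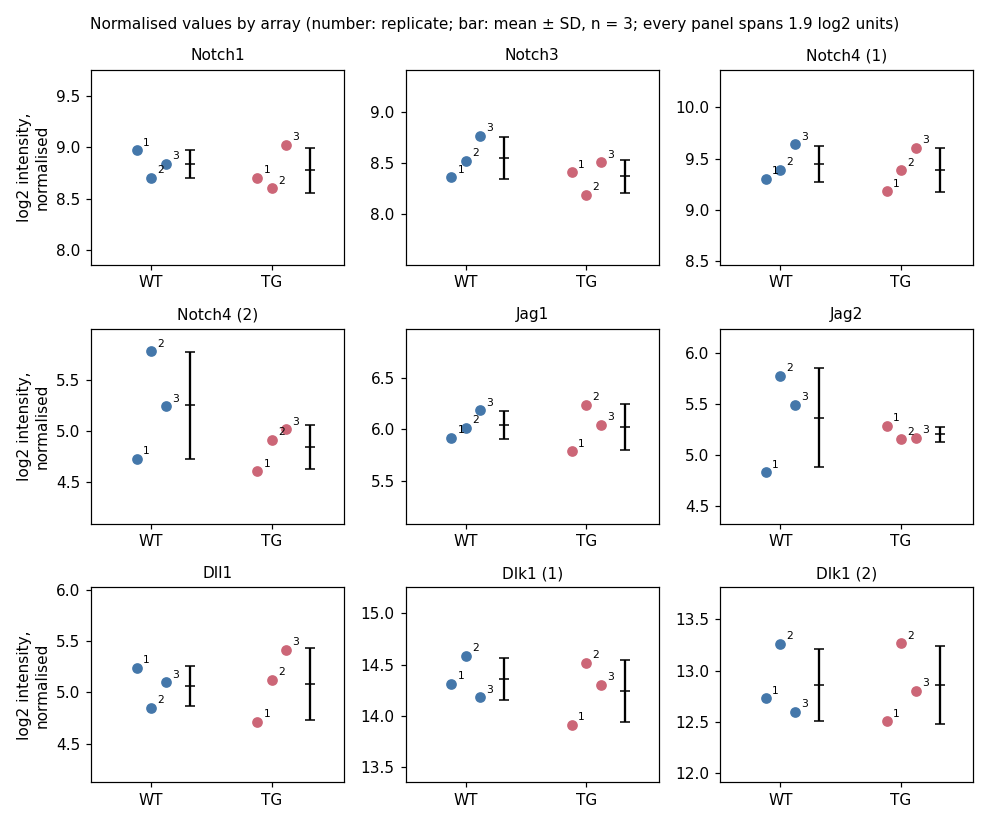
Normalised log2 intensity of the 9 tested probes in WT (blue) and TG (red), each point 1 array labelled by its replicate number, with mean ± SD (n = 3) beside each group; all panels span the same number of log2 units. TG replicate 1 is the lowest of the 6 arrays in 6 of the 9 panels, and the groups overlap in each.

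Dlk1, also called Pref-1, is an imprinted membrane and secreted protein with Delta-like repeats but without the receptor-binding DSL domain of the canonical ligands, and it is known as an inhibitor of adipocyte and osteoblast differentiation that is also made by developing muscle and cartilage. Probe ILMN_2771738 had intensities of 20162.6, 27773.5 and 17667.9 in WT and 15797.4, 22128.4 and 20859.2 in TG. The second probe, ILMN_1244618, had 6943.8, 10775.3 and 5807.8 in WT and 6060.0, 9317.0 and 7472.4 in TG. On both probes replicate 2 was the highest array of its group, and the groups overlapped. The log2 fold change was -0.12 ± 0.18 (SE; 95% interval -0.54 to 0.31, limma, unadjusted p = 0.541) on the first and -0.01 ± 0.24 (SE; 95% interval -0.55 to 0.54, limma, unadjusted p = 0.982) on the second. Without TG replicate 1 these values turned to 0.05 and 0.17, and the second was also positive without WT replicate 2 (0.19) and without TG replicate 3 (0.02). The brighter probe reached 60.4% of the highest intensity on any array. The range over the 6 arrays was 0.67 for it and 0.76 for the second probe on the normalised log2 scale.

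Dlk1 spread more within each group than the group means differed. Relative to its own mean over the 6 arrays, the second Dlk1 probe was at -0.13, 0.40 and -0.26 in WT and -0.35, 0.40 and -0.06 in TG. The mean of 9 skeletal muscle markers, among them Ckm, Mylpf and Tnnt3, was at -0.44, 1.07 and 0.01 in WT and -1.44, 0.62 and 0.19 in TG. Replicate 2 was thus the highest array of each group for Dlk1 and for the muscle list, and TG replicate 1 was the lowest of all 6 arrays for both. The summed intensity of the muscle list was 36348 to 101737 in WT and 20542 to 71642 in TG. Adipocyte markers, of which 3 of 6 were measured, were also highest on WT replicate 2 (0.53) and lowest on TG replicate 1 (-0.45). Chondrocyte markers were highest on TG replicate 2 (1.04) and lowest on WT replicate 3 (-0.87). The part of these tissues in the Dlk1 values was not tested.

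**Figure D4:**
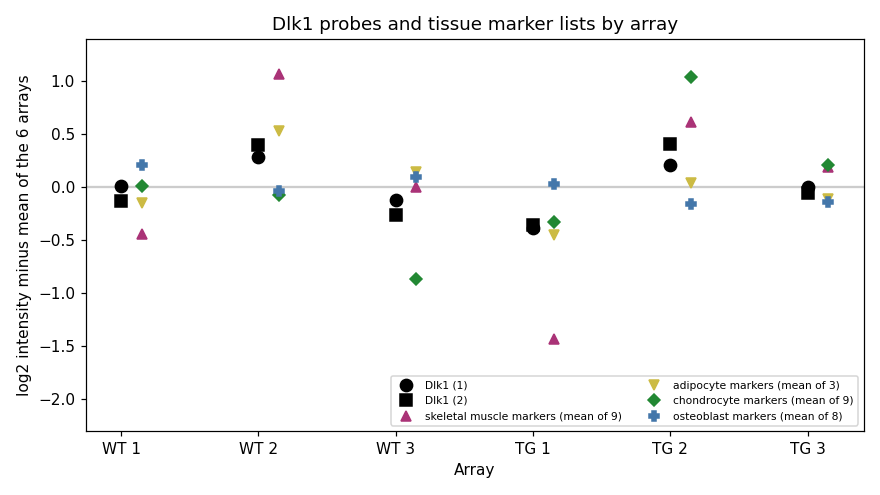
Log2 intensity minus the mean of the 6 arrays (y axis) for the brighter (1) and the dimmer (2) Dlk1 probe, and for the mean of 4 tissue marker lists, on each array (x axis). Both Dlk1 probes and the skeletal muscle list peak on replicate 2 of each group and are lowest on TG replicate 1.

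The arrays with a female pattern are both TG, so sex-linked pattern and genotype are partly confounded. TG replicate 1, the only TG array with a male pattern, had the lowest value of the 6 arrays for 6 of the 9 tested probes, namely both Notch4 probes, Jag1, Dll1 and both Dlk1 probes. Against the 3 WT arrays, that array alone gave negative values for 9 of 9 probes, from -0.64 to -0.08. With the mean Kdm5d and Uty level entered as a Y-linked covariate, 9 of 9 were negative as well, from -0.84 to -0.13, and 0 passed (limma, smallest adjusted p = 0.884). Uty was lower on each TG array (5.36, 5.14 and 5.14) than on any WT array (5.73 to 6.07). The covariate was thus 6.27, 4.92 and 4.78 in TG and 6.37 to 6.72 in WT, so it partly follows genotype. The value of the brighter Dlk1 probe went from -0.12 to -0.52 and that of Jag1 from -0.02 to -0.31 with this covariate. Both settings rest on 1 TG array with a male pattern, so a difference tied to that array and one tied to genotype cannot be told apart. TG replicate 1 also had the lowest mean of the skeletal muscle (-1.44) and neutrophil (-1.21) marker lists, and their part was not tested.

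The genes with the most similar array pattern were sought for the members whose brightest tested probe varied most, Jag2 and Dll1, by the root-mean-square difference between values centred on each probe's own mean over the 6 arrays, among 11203 genes. For Jag2 the nearest genes were Phka1 (0.04 log2 units), Galnt17 (0.10) and Ppargc1a (0.10), all with their lowest value on WT replicate 1 and their highest on WT replicate 2. For Dll1 they were N4bp2l1 (0.04), Rcc2 (0.05) and Ythdc2 (0.05), all lowest on TG replicate 1 and highest on TG replicate 3. For the brighter Dlk1 probe, added after its values were seen, they were Myo18a (0.03), Zscan21 (0.05) and Pxn (0.06), again highest on WT replicate 2 and lowest on TG replicate 1. These matches are a description of 6 arrays.

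Of 57 other Notch pathway genes listed, 43 were measured, and 0 passed the test in either direction (limma), beside 0% of the 11204 genes tested. At an unadjusted p under 0.05 there was 1 of 43, against 2.53% of all genes. Values were positive for 21 and negative for 22, with a median of -0.002. In normalised values the groups did not overlap for 1 gene higher and 4 lower in TG. These are 2.33% and 9.30% of the 43, against 3.35% and 3.48% of all genes tested. The 1 higher gene, Adam10, was detected on 1 WT and 3 TG arrays, so it met the filter through TG. Before normalisation the groups of Adam10, Epn2, Numbl and Kat2b overlapped, and those of Hey1 did not.

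No measured gene that acts on the ligands or on the receptors before or during cleavage passed. Of the other Notch-binding ligands, 5 were measured, with Dner, a neuronal ligand, at 0.13 ± 0.40 (SE) and Mfap2, a microfibril protein, at 0.04 ± 0.14. The factors that ubiquitinate or internalise ligands had 3 positive and 2 negative values. Epn2, an endocytic adaptor, had -0.16 ± 0.12 without overlap of the groups in normalised values, though its other probes ranged from -0.50 to 0.40. Mib1, a ubiquitin ligase that activates ligands, had 0.14 ± 0.16. Among 4 receptor-modifying genes, the glycosyltransferase gene Poglut1 had 0.12 ± 0.12 and the fringe gene Rfng 0.19 ± 0.21. Among 6 genes of receptor cleavage, the protease gene Adam10 had 0.23 ± 0.13 without overlap in normalised values. It was detected on 1 WT array and 3 TG arrays. Its value was 0.07 without background correction and 0.04 in the values the authors normalised. Aph1a, a gamma-secretase subunit gene, had 0.18 ± 0.13. Ncstn, another gamma-secretase subunit gene, had -0.17 ± 0.13, with its other probes at -0.45 and -0.22.

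The 10 measured genes of receptor trafficking and inhibition had 4 positive and 6 negative values. Numbl, a relative of the inhibitor Numb, had -0.31 ± 0.15 (SE) without overlap in normalised values. Dtx2, a ubiquitin ligase, had -0.12 ± 0.13 (-0.02 and -0.52 on its other probes). The nuclear complex had 4 positive and 4 negative values among 8. Snw1, a co-regulator that binds the Notch complex, had 0.35 ± 0.16, which was 0.10 without background correction, 0.07 in the values the authors normalised and 0.71 with the Y-linked covariate, and Kat2b, an acetyltransferase, had -0.20 ± 0.11 without overlap, with its other probe at 0.09. Rbpj, the DNA-binding partner of Notch, had 3 probes, and none was detected on enough arrays to be tested. All 5 measured effector genes had negative values, with a median of -0.17. Of all 11204 genes tested, 5656 were negative. Hey1, a repressor induced by Notch, was at 9.97 ± 0.32 in WT and 9.43 ± 0.07 in TG (SD, n = 3). The difference was -0.54 ± 0.17 (SE; limma, unadjusted p = 0.0129, adjusted p = 0.9996), with no overlap of the groups. It stayed between -0.72 and -0.41 when any 1 array was left out and was -0.48 ± 0.28 (SE) with the Y-linked covariate, where its unadjusted p was 0.128 (limma). Heyl, a relative of Hey1 known from vascular smooth muscle, had -0.23 ± 0.17, Hey2 -0.17 ± 0.18, Hes1 -0.05 ± 0.16 and Hes6 -0.002 ± 0.14. By 1 probe per gene, Hey1 had the largest negative value of the measured receptor, ligand and pathway genes, and Notch3 that of the receptors and ligands.

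**Figure D5:**
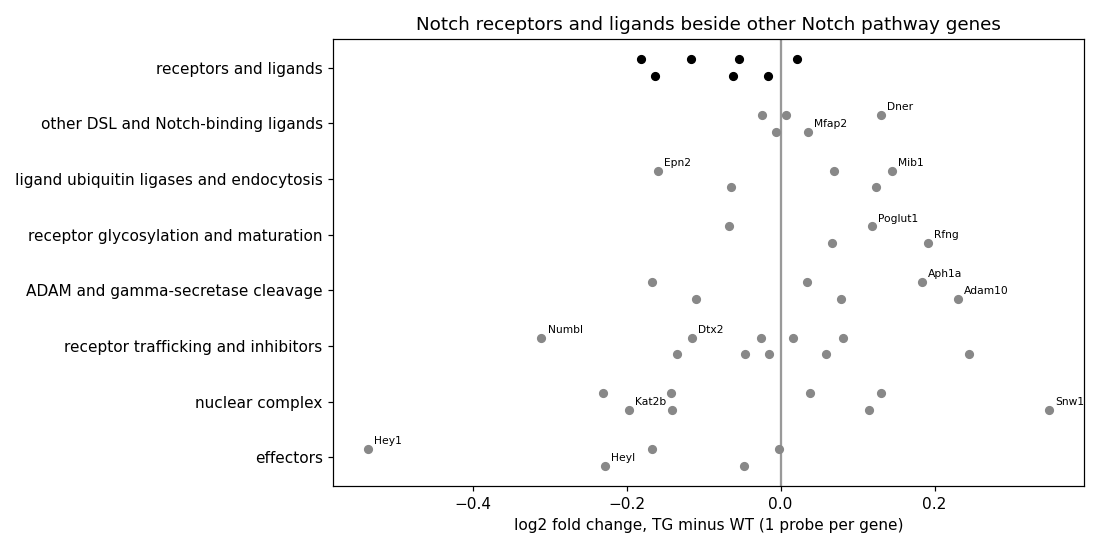
Log2 fold change (TG minus WT, x axis) of each measured gene, 1 probe per gene, for the 7 receptor and ligand genes (black) and for the other Notch pathway genes (grey) by role, with names for up to 2 genes per role with the smallest unadjusted p. The receptors and ligands lie between -0.18 and 0.02, and Hey1 is the leftmost point at -0.54.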

How the data were processed

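The authors deposited a table of bead intensities on a linear scale, without background subtraction, with a detection p-value per probe and array, and a table of normalised log2 values; per the submitters' processing notes lumi was used (version and steps not given in the sources used here). The deposited log2 values had a median of 7.55 on each array, so they are not centred on 0, their direction follows the intensities (Pearson r over probes 0.995 to 0.998 with log2 intensity), and the transformation behind their scale is unknown. Gene symbols came from the platform annotation, which gave 34885 of the 45281 probes 1 symbol. In R 4.3.3 with limma 3.58.1, intensities were corrected by the normal-exponential method with 936 negative control rows, identified because they gave back the deposited detection p-values within 0.0139, 16 was used as the offset, and quantile normalisation between arrays followed, in log2. Entering the test required detection p under 0.05 on at least 3 of 6 arrays (TG against WT, linear model with empirical Bayes, two-sided, Benjamini-Hochberg over 20632 probes, threshold 0.05). Where a gene had several tested probes, the one with the highest mean stood for it. At most 0.462% of intensities were identical between any pair of arrays, so none was a copy. The number of arrays limits the precision. The fit was checked on simulated data. The 9 members, the lists, the tests and the alternatives were chosen with earlier results of these data known. Named were all members, up to 2 pathway genes per role with the smallest p, and the 3 genes nearest in pattern to the 2 most variable members. Hey2, Hes1, Hes6, Ncstn, Bglap and the named tissue markers were added after their values were seen.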

Additional observations from a re-analysis of the deposited data

How the results depend on the processing

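No Notch receptor or ligand probe and no other Notch pathway gene passed in any of 17 alternatives, which changed the background correction, the values used, the scaling, the offset, the filter, the variance model, the replicate block, a covariate or the arrays. The count over all probes was 0 in each except without TG replicate 1, where Xist and Kdm5d passed, so it was 0 to 2 on leaving out 1 array. Replicate number as a block gave 0 probes. Correlations of the deviations were 0.26, 0.15 and -0.17 for same-numbered arrays and -0.37 to 0.29 for the other WT and TG pairs. Whether same-numbered arrays were paired cannot be told from these values. Of 148 alternative values of the 9 tested member probes, 131 kept their direction and side of the threshold and 17 reversed; the cause was not tested. With median scaling Jag1 was 0.015 and the dimmer Dlk1 probe 0.0067. Dll1 was -0.38 with the Y-linked covariate and -0.35 with male-pattern arrays alone. Leaving out 1 array gave Notch1 -0.19 to 0.027, Notch3 -0.28 to -0.07, the dim Notch4 probe -0.66 to -0.14, the brighter Notch4 probe -0.16 to 0.050, Jag1 -0.12 to 0.10, Jag2 -0.43 to 0.040, Dll1 -0.14 to 0.21, the brighter Dlk1 probe -0.25 to 0.048 and the dimmer one -0.21 to 0.19; of pathway genes, Dner -0.16 to 0.52, Mfap2 -0.043 to 0.15 and Rfng -0.028 to 0.33. Among the 9 tested probes, unadjusted p fell under 0.05 only without WT replicate 1, for the dim Notch4 probe (0.0154) and Jag2 (0.0216); without the filter it was 0.0083 for Notch2 probe ILMN_2678002. Without background correction the dim Notch4 probe had -0.13 in place of -0.40 and Jag2 -0.05 in place of -0.16. Notch2 and Dll4 are limited by signal over background. Of the tested probes, Dll1 was also close to it, at 1.06 to 1.26 times the negative control median. The same holds for Jag2 (1.09 to 1.37 times) and the dim Notch4 probe (1.03 to 1.37 times).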
